A study of Mus musculus with 24 samples.

Results

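Caseins and whey proteins are the main proteins of milk, and 8 mouse genes that encode them were followed on 24 expression arrays: Csn1s1, Csn1s2a, Csn1s2b, Csn2 and Csn3, which encode caseins, and Wap, Lalba and Glycam1, which encode whey proteins. They were chosen by the RefSeq accession of the array probes, without use of the signal, and are represented by 10 of the 55681 probes and by 8 of the 20145 gene symbols that the probes could be given. Csn1s2b and Wap each have 2 probes, and every other gene has 1. A further probe, A_51_P227275, carries an Ensembl transcript in place of a RefSeq accession and is therefore outside this choice, but the study's tables name it Csn3, and its values are given separately as those of the Csn3 Ensembl probe.

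All samples were HC11 cells, a cultured mouse mammary epithelial line that goes back, through the Comma-D line, to a Balb/c mouse in mid-pregnancy, so each group is a culture of a single line and holds no stroma, fat or myoepithelium of a gland. In the knockdown experiment, cells received 10 nM siRNA: a negative control (siNEG), a pair of siRNAs against the mPINC1.0 and mPINC1.6 forms of the noncoding RNA mPINC (siPINC1.0/1.6, named siPINC1/6 in the labels), or a pair against all splice forms, DCR2 included (siPINC). Each was studied without hormones (-LH, 2 cultures per group) and with prolactin, hydrocortisone and insulin to induce differentiation (+LH, 3 cultures per group). In the overexpression experiment, 3 populations were each made once with LeGO lentiviruses and all received the hormones, 3 cultures per group. LeGO-GFP is the vector control, LeGO-1.0/1.6 overexpresses the 1.0 and 1.6 forms of mPINC together, and LeGO-DCR carries a deletion mutant that lacks the conserved regions, so this experiment has no -LH group. How long the hormones were present before the arrays is not given in the sources used here. By the study's methods insulin was also in the growth and priming media, so -LH cells lacked prolactin and hydrocortisone but not insulin. The growth medium also held calf serum and the growth factor EGF. Hormones were given in priming medium, which has stripped horse serum and no EGF. Which medium the -LH array cells were in is not stated. Serum, EGF and time in culture may thus differ between -LH and +LH cells, and cannot be told apart from the hormones. P-values measure the spread between these cultures of one line.

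Caseins assemble with calcium phosphate into the micelles of milk. Prolactin activates its receptor and the kinase JAK2, which phosphorylates the transcription factor STAT5, and STAT5 acts with the glucocorticoid receptor, C/EBP beta, ELF5 and NFI proteins at milk protein gene promoters. In the mammary gland the caseins appear during pregnancy, and the genes of the whey proteins are mostly switched on later, near the onset of lactation.

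The 5 casein genes lie on chromosome 5 in the order Csn1s1, Csn2, Csn1s2a, Csn1s2b and, after Prr27, Odam and other genes, Csn3. Wap lies on chromosome 11, and Lalba and Glycam1 lie on chromosome 15. The 250 bases before the annotated start were available for 6 of the 8 genes, from RefSeq on GRCm38.p6, which is not the build of the array design. Those of Csn1s1 and Csn2 are shown because both genes were called higher with hormones in all 3 siRNA groups, that of Glycam1 because it holds the same motif but gave no signal, and that of Wap because its signal was seen only in lentivirus-transduced cells. Sequences are 5′ to 3′ on the strand of the gene, and capitals mark the palindrome TTCNNNGAA, the core of a STAT5 site.

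Csn1s1 (chr5:87665958-87666207, plus strand): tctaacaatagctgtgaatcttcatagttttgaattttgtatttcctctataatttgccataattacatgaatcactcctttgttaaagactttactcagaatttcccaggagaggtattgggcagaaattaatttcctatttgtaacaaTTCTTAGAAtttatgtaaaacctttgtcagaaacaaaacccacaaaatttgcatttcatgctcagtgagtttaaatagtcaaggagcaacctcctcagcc
Csn2 (chr5:87699426-87699675, minus strand): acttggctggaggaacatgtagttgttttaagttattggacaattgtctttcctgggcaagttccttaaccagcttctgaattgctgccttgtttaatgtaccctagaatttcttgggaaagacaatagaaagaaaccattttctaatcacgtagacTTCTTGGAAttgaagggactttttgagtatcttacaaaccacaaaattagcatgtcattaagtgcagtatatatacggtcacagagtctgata
Glycam1 (chr15:103565082-103565331, minus strand): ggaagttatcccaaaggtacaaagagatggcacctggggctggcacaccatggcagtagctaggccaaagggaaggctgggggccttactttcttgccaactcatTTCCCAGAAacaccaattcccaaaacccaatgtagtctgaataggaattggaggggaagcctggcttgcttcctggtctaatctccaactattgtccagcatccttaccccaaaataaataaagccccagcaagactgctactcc
Wap (chr11:6638650-6638899, minus strand): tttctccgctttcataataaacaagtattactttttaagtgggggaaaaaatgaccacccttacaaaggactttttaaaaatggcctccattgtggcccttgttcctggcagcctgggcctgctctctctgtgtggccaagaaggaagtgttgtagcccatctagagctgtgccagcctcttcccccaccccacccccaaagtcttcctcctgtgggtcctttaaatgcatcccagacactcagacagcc

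The palindrome was present in the Csn1s1 promoter at bases -100 to -92 as TTCTTAGAA, in the Csn2 promoter at -93 to -85 as TTCTTGGAA and in the Glycam1 promoter at -145 to -137 as TTCCCAGAA. It was not found in this window of Csn1s2a, Wap or Lalba. Of 32851 promoter entries of the same length, 7.02% hold it. The glucocorticoid receptor element AGAACA was found, on either strand, only in Csn1s2a (at -59 to -54) and is held by 16.1% of the entries. The NFI element TTGGC was found in Csn2, Wap, Lalba and Glycam1 and is held by 41.5%. The C/EBP element TTGCNNAA (9.56% of entries) and TATAAA (12.4%) were found in none of the 6. No match overlapped another. These are matches of letters and not measured binding sites.

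**Figure D1:**
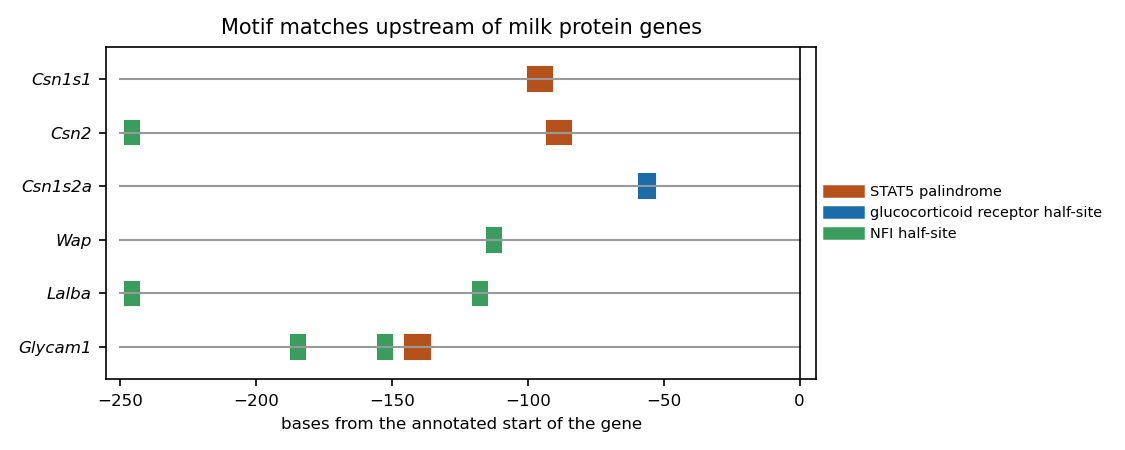
Motif matches in the 250 bases before the annotated start of 6 milk protein genes (x axis, bases from the start; 1 line per gene; coloured blocks, matches on either strand). The STAT5 palindrome lies near -100 in both Csn1s1 and Csn2 and further upstream, at -145, in Glycam1, and is missing from Csn1s2a, Wap and Lalba.

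Between 24012 and 35763 probes per array were well above background by the mark of the scanner software. LeGO-1.0/1.6 replicate 1 stood apart, with 35763 such probes and 644 spots marked as outliers against 146 to 280 on the other arrays. The epithelial markers Krt8, Krt18, Epcam, Cdh1, Krt5, Krt14 and Trp63 were well above background on all 24 arrays, and Krt19 on 1. Markers of other cell types were in part present as well: of the fibroblast list Pdgfra and Col3a1 were above background on 24 arrays, Dcn and Col1a1 on 22 and Lum on 10, and of the adipocyte list Fabp4 on 24, Plin1 and Cidec on 2 each and Adipoq and Lep on none. The mPINC probe was 7.41 and 7.48 on the log2 scale in siNEG -LH cells, 6.27 and 6.39 in siPINC1.0/1.6 and 6.16 and 6.39 in siPINC. In +LH cells it lay between 4.72 and 4.96 in siNEG, between 4.83 and 5.25 in siPINC1.0/1.6 and between 4.15 and 4.76 in siPINC. It was not well above background in siNEG replicate 1, siPINC1.0/1.6 replicate 3 and siPINC replicates 2 and 3, but was on the others. A lower level after siPINC1.0/1.6 was not seen there (limma, log2 fold change 0.19, adjusted p = 0.713). A probe this close to background cannot show whether the knockdown held in +LH cells. The paper reports mPINC knockdown by qPCR, for which its legend does not name the hormone state. The +LH groups are named below as their labels give them. The mPINC probe rose to between 13.34 and 13.50 in LeGO-1.0/1.6 from between 5.92 and 6.38 in LeGO-GFP. In LeGO-DCR it was between 5.93 and 6.17, and it is no check there if it lies in the deleted exons.

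Of the 8 genes, Lalba was well above background on 24 of 24 arrays, Csn1s2b on 19, Csn2 on 15, Csn1s1 on 13, Wap on 6 and Csn1s2a on 1. Csn3, by its RefSeq probe, and Glycam1 were above background on none, while the Csn3 Ensembl probe was above background on 24. Signals are log2 values after quantile normalization, and a signal near 1.9 is the floor of the scale. A bulk culture cannot separate fewer cells that make a transcript from less transcript per cell. Levels are compared between groups for a given probe and not between probes.

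**Figure D2:**
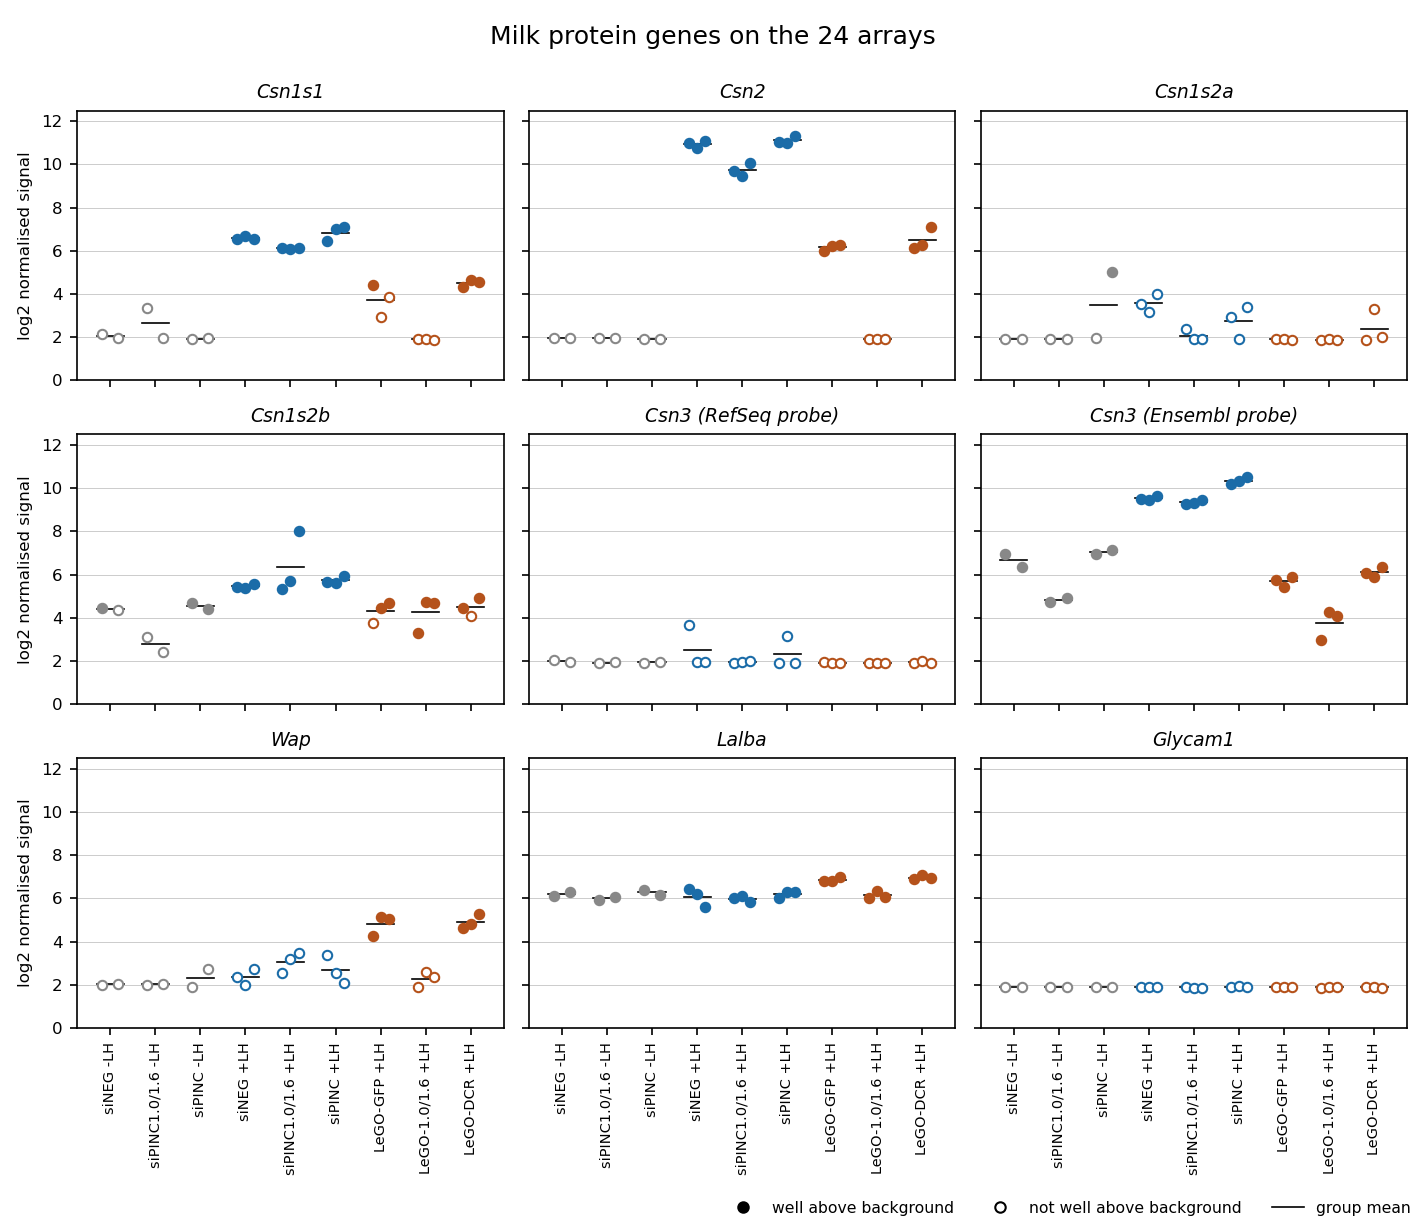
Signal of the 8 milk protein genes and of the Csn3 Ensembl probe on each of the 24 arrays (y axis, log2 normalised signal; x axis, the 9 groups; points, arrays; filled, well above background; line, group mean). Csn2 and Csn1s1 are filled in the +LH siRNA groups and open in the -LH and LeGO-1.0/1.6 groups, while Lalba is filled throughout.

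Whether lactogenic hormones raised the milk protein genes was asked in each siRNA group. Csn2 (beta-casein, a major casein of mouse milk), Csn1s1 (an alpha-casein) and the Csn3 Ensembl probe (kappa-casein, which coats the micelle) rose in all 3 siRNA groups, with the largest log2 change for Csn2 in each. Lalba (alpha-lactalbumin, the regulatory subunit of lactose synthase) passed the test in none. In siNEG cells 2 of the 8 genes were called higher and 0 lower at an adjusted p under 0.05 by limma, where 27.1% of all probes were called in either direction and 13.5% as higher. The median log2 change was 0.78 over the 8 genes and 0.01 over all probes. Only 4 of the 8 genes were measured, and values at background enter the median of 0.78, among them the Csn3 RefSeq probe at 0.52. In siPINC1.0/1.6 cells 3 genes were called higher (29.8% of all probes in either direction, 14.2% as higher) and in siPINC cells 2 (28% and 13.5%).

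Csn2 was 1.97 on both siNEG -LH arrays and 10.98, 10.76 and 11.08 on the +LH arrays. In siPINC1.0/1.6 cells it was 1.95 on both -LH arrays and 9.69, 9.48 and 10.06 on the +LH arrays, and in siPINC cells 1.90 and 1.91 against 11.02, 11.00 and 11.34. No -LH array was above background and every +LH siRNA array was, with a wide gap between them. Because the -LH signal is only a bound, the change is given as bright over dim, with the dim group set to the lowest signal that was well above background on each array. On this scale Csn2 was at least 106-fold higher with hormones in siNEG (adjusted p = 1.25e-10), at least 44.2-fold in siPINC1.0/1.6 (adjusted p = 3.32e-10) and at least 129.8-fold in siPINC (adjusted p = 1.50e-10). The fitted log2 changes were 8.97 ± 0.16 (SE), 7.80 ± 0.16 and 9.22 ± 0.16, and fell to 4.99 in siNEG with normexp background correction, which adds an offset to every spot. That is a smaller change than the bound, so bounds given here and below hold for the main processing only. The adjusted p beside a bound is that of the fitted change.

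Csn1s1 was 2.14 and 1.95 in siNEG -LH cells and 6.55, 6.68 and 6.53 with hormones. In siPINC1.0/1.6 it was 3.34 and 1.95 against 6.15, 6.09 and 6.13, and in siPINC 1.90 and 1.93 against 6.44, 6.99 and 7.09. As for Csn2, all -LH arrays were at background and no +LH array overlapped them. The difference was at least 5.19-fold in siNEG (adjusted p = 1.37e-06), at least 3.59-fold in siPINC1.0/1.6 (adjusted p = 9.46e-06) and at least 6.66-fold in siPINC (adjusted p = 7.52e-07). With normexp correction the log2 change of Csn1s1 in siNEG was 1.33 in place of 4.54, and it stayed past the threshold.

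The Csn3 Ensembl probe differed from these in having signal before hormones. It was 6.96 and 6.35 in siNEG -LH cells and 9.49, 9.46 and 9.65 in +LH cells, a 7.34-fold rise (log2 2.88 ± 0.16 SE, adjusted p = 2.37e-07). In siPINC1.0/1.6 cells it began lower, at 4.74 and 4.91, and ended at 9.29, 9.31 and 9.47, a 23.1-fold rise (adjusted p = 9.39e-09). In siPINC cells it went from 6.98 and 7.13 to 10.19, 10.32 and 10.51, a 9.77-fold rise (adjusted p = 9.06e-08). The Csn3 RefSeq probe stayed between 1.88 and 3.67 on all 24 arrays, never above background, so the 2 probes of this gene disagree and the RefSeq probe gives no measurement of it.

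Csn1s2b (an alpha-S2-like casein) was present at a low level without hormones. It was 4.46 and 4.35 in siNEG -LH cells and 5.41, 5.39 and 5.55 in +LH cells, and 4.67 and 4.42 against 5.65, 5.63 and 5.94 in siPINC. The groups did not overlap, but the changes of 1.05 and 1.19 on the log2 scale did not pass the test (limma, adjusted p = 0.284 and 0.203). In siPINC1.0/1.6 it was 3.11 and 2.42 without hormones, both at background, and 5.35, 5.69 and 8.03 with them, at least 4.23-fold higher (adjusted p = 9.37e-04). Replicate 3 stands far above the other arrays of its group. With normexp the log2 change of Csn1s2b in siPINC1.0/1.6 was 0.99 in place of 3.59 and was called. Without replicate 3 it fell from 3.59 to 2.76 and stayed past the threshold, and the changes in siNEG and siPINC passed as well (adjusted p = 0.00262 and 0.00114). The other Csn1s2b probe was above background on 4 of 24 arrays and was lower, not higher, on average with hormones in all 3 groups, with no call (log2 fold change -1.04 in siNEG, adjusted p = 0.59).

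Of the whey protein genes Lalba alone was above background in the siRNA experiment. Lalba was 6.12 and 6.31 in siNEG -LH cells and 6.44, 6.20 and 5.60 in +LH cells, and the groups overlapped. Its log2 change was -0.14 (95% interval -0.60 to 0.33, adjusted p = 0.778) in siNEG, and the intervals in siPINC1.0/1.6 (-0.47 to 0.46) and siPINC (-0.56 to 0.37) also include 0. Wap (whey acidic protein) was between 1.88 and 3.48 on the 15 siRNA arrays, above background on none, with its highest values in siPINC1.0/1.6 +LH cells at 2.53, 3.20 and 3.48. Glycam1, a mucin-like milk glycoprotein, was at the floor everywhere. Csn1s2a reached 3.54, 3.16 and 3.98 in siNEG +LH cells against 1.88 and 1.90 without hormones, but no array of either group was above background, and the only one that was, siPINC -LH replicate 2 at 4.996, had no hormones.

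**Figure D3:**
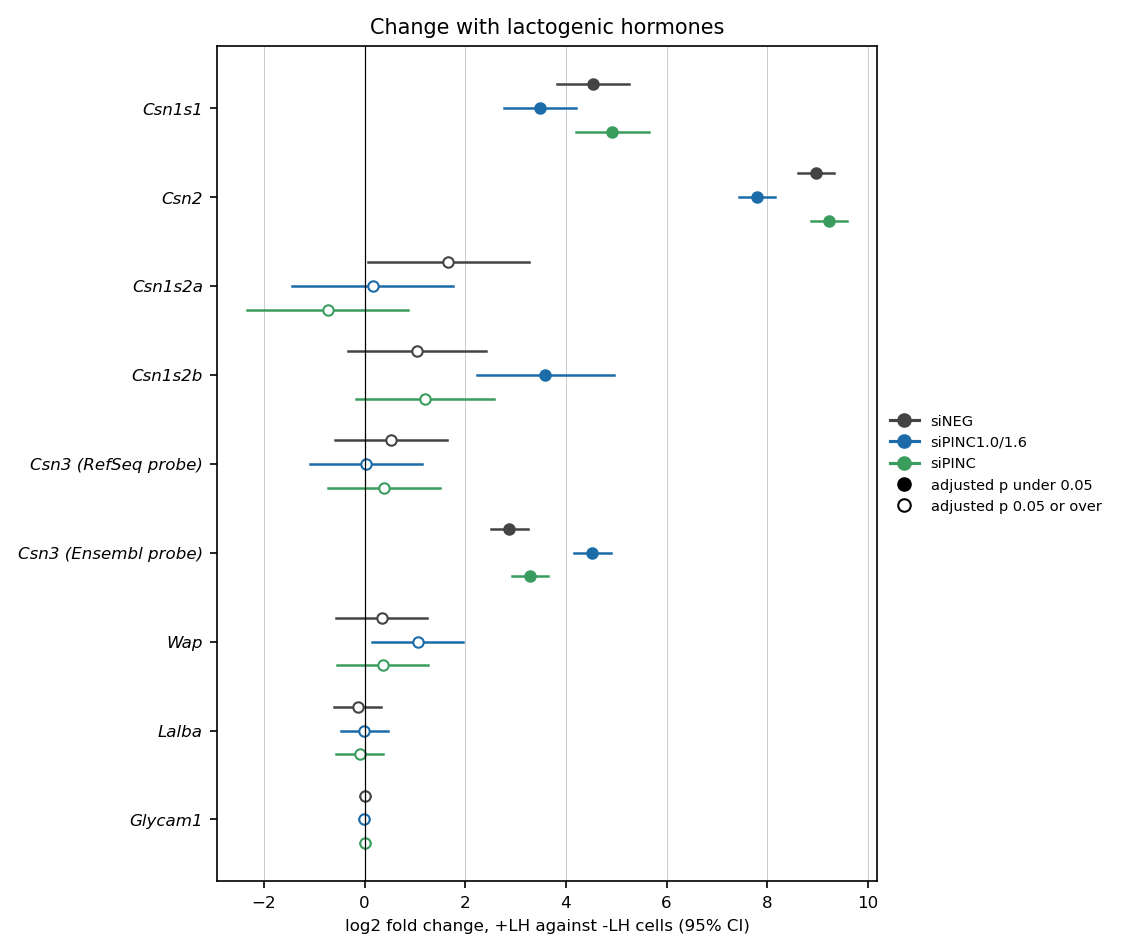
Change of each milk protein gene with lactogenic hormones (x axis, log2 fold change of +LH over -LH cells with its 95% interval; colours, siRNA groups; filled, adjusted p under 0.05 by limma). Csn2 lies between 7.80 and 9.22 and Csn1s1 between 3.48 and 4.92 in all 3 groups, and Lalba and Glycam1 lie at 0.

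All -LH arrays were on the first slide, together with siNEG +LH replicate 1 and LeGO-GFP replicate 1, and the other +LH siRNA arrays were on the second. On the first slide alone, Csn2 was 10.98 with hormones against a mean of 1.97 without, Csn1s1 6.55 against 2.04 and the Csn3 Ensembl probe 9.49 against 6.65. For siPINC1.0/1.6 and siPINC no slide holds both treatments. With a term for the slide in a fit of all arrays the log2 changes in siNEG were 9.01 for Csn2 and 4.51 for Csn1s1.

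Markers of epithelial subtypes and of fibroblasts moved with the hormones too. Among all probes 27.1% were called for the siNEG hormone change, 13.5% as higher. The other siRNA pairs had shares of 29.8% (siPINC1.0/1.6, 14.2% as higher) and 28% (siPINC, 13.5% as higher). For siNEG 5 of 6 luminal, 6 of 6 basal and 4 of 5 fibroblast markers were measured. Many of all probes were not above background, so marker counts and these shares are not of like probes. In siNEG 4 of 6 luminal markers were higher and 0 lower, with a mean log2 signal per array of 9.98 to 10.32 in -LH and 10.81 to 11.17 in +LH cells. Of 6 basal markers 2 were higher and 4 lower (12.05 to 12.08 against 11.52 to 11.62), and of 5 fibroblast markers 4 were higher and 1 lower (6.12 to 6.28 against 8.06 to 8.11). In siPINC1.0/1.6 the counts were the same, and in siPINC they differed only in the fibroblast list, with 3 higher. Their part in the rise of the milk protein genes was not tested.

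The hormone pathway itself was followed with 32 genes of prolactin, insulin and glucocorticoid signalling and of milk gene transcription factors. In siNEG cells 18 of the 32 were higher with hormones and 8 were lower, where 27.1% of all probes were called and 13.5% as higher. The median log2 change was 0.56, against 0.01 over all probes. All 32 genes were measured, while many of all probes were not above background, so the shares and medians are not of like probes. Tsc22d3 and Fkbp5, classical glucocorticoid targets, rose by 3.93 ± 0.07 (SE) and 2.99 ± 0.09. The ETS factor Ehf rose by 3.65 ± 0.09, the clock gene Per1, also induced by glucocorticoids, by 2.49 ± 0.09, and Cish, an inhibitor of cytokine signalling induced by STAT5, by 2.11 ± 0.08. Among 23 other milk proteins and secretory genes 10 were higher and 4 lower. Pip, which encodes a secreted glycoprotein, rose by 4.60 ± 0.05, Wfdc18, a WAP-family protein, by 2.61 ± 0.07 and the milk fat globule enzyme Xdh by 2.06 ± 0.14. Of the 13 genes near the casein cluster with a probe, 2 were called higher, Sult1d1 and Sult1e1, although none of the 13 was above background on every array of either group.

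Knockdown without hormones was tested next. By limma 0 of the 8 genes were called for siPINC1.0/1.6 (2.96% of all probes) and 0 for siPINC (0% of all probes), and the t-test of the study's methods also called 0 in each, both after Benjamini-Hochberg adjustment and at the study's own threshold for knockdown, an unadjusted p under 0.01 with a fold over 1.8. At that threshold 1.05% of all probes passed for siPINC1.0/1.6 and 0.403% for siPINC. Only 1 of the 8 genes was measured for siPINC1.0/1.6 and 2 for siPINC, so these counts say little about the others. At an unadjusted p under 0.05 there was 1 gene for siPINC1.0/1.6, Csn1s2b, where 19.2% of all probes passed, and 0 for siPINC, where 9.68% did. Csn1s2b was 3.11 and 2.42 in siPINC1.0/1.6 against 4.46 and 4.35 in siNEG, a log2 difference of -1.64 ± 0.26 (SE) that missed the threshold (adjusted p = 0.0658). The Csn3 Ensembl probe was 4.74 and 4.91 against 6.96 and 6.35, with a log2 difference of -1.83 ± 0.23 (adjusted p = 0.048). In siPINC cells, at 6.98 and 7.13, it did not pass the test (log2 difference 0.40, adjusted p = 0.728). The fall with siPINC1.0/1.6 lies just under the threshold and its call was lost without any 1 of the 6 -LH arrays, with adjusted p up to 0.165. With normexp the difference was -0.84. In the same comparison 3 of 5 fibroblast markers were lower and 0 higher, with a mean log2 signal per array of 5.04 to 5.20 in siPINC1.0/1.6 against 6.12 to 6.28 in siNEG, and of 6 basal markers 1 was higher and 1 lower (11.57 to 11.62 against 12.05 to 12.08). Their part in the difference was not tested.

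In +LH cells, the arrays labelled siPINC1.0/1.6 had less Csn2 than siNEG. The values were 9.69, 9.48 and 10.06 against 10.98, 10.76 and 11.08, with no overlap. The log2 difference was -1.20 ± 0.17 (SE), a 2.30-fold fall (adjusted p = 0.0128), and Csn2 was the only gene called of 8, where 3.84% of all probes were called and 1.75% as lower. All siNEG arrays but replicate 1 were on the slide of the siPINC1.0/1.6 arrays. Within that slide the difference was -1.18 and missed the threshold (adjusted p = 0.0535), and it was also lost without siPINC1.0/1.6 replicate 1 (-1.17, adjusted p = 0.0571) and when the methods' t-test was adjusted by Benjamini-Hochberg over all probes (adjusted p = 0.104). At the study's own threshold, an unadjusted p under 0.01 with a fold over 1.8, Csn2 passed, as did Csn1s2a, which was not above background in either group, and 0.987% of all probes did. Csn1s1 leaned the same way, at 6.15, 6.09 and 6.13 against 6.55, 6.68 and 6.53, without overlap but without a call (log2 difference -0.46 ± 0.16, adjusted p = 0.225). Its t-test passed after Benjamini-Hochberg adjustment (adjusted p = 0.0488) but its 1.38-fold difference is under the study's fold threshold.

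Cells labelled siPINC did not show this. Csn2, at 11.02, 11.00 and 11.34, overlapped siNEG, with a log2 difference of 0.18 (95% interval -0.22 to 0.59, adjusted p = 0.754). By limma 0 of 8 genes were called, 0 at an unadjusted p under 0.05 and 0 by the methods' t-test, adjusted or at the study's threshold. Of all probes 0.681% were called by limma, 10.1% passed unadjusted and 0.273% passed the study's threshold. Of the 8 genes 4 were measured. The Csn3 Ensembl probe was 10.19, 10.32 and 10.51 against 9.49, 9.46 and 9.65 in siNEG, a 1.75-fold rise (log2 0.81 ± 0.10, adjusted p = 0.027), and its call was lost within the second slide (log2 0.79, adjusted p = 0.0962). It was lost in 8 of the 9 fits that left out 1 array, with adjusted p up to 0.11, and kept without siPINC1.0/1.6 replicate 3 (adjusted p = 0.046).

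The direct comparison of the siRNA pairs in +LH cells gave Csn2 2.60-fold lower in siPINC1.0/1.6 than in siPINC (log2 -1.38 ± 0.17, adjusted p = 0.0213), 1 gene of 8 where 0.914% of all probes were called and 0.472% as lower. The Csn3 Ensembl probe was 1.98-fold lower (log2 -0.99 ± 0.10, adjusted p = 0.0115). Csn1s1 differed by -0.72 and was not called (adjusted p = 0.132). The siPINC1.0/1.6 arrays lay below the siPINC arrays without overlap for these 3 probes, whereas Csn1s2b and Lalba, also measured, overlapped. How many of all probes did not overlap was not counted. All 6 arrays were on the second slide. The Csn2 call was lost in 6 of the 9 fits that left out 1 array, with adjusted p up to 0.0929, and both calls were lost with the adjusted t-test, although both probes passed the study's threshold, as did 0.412% of all probes. The call of the Csn3 Ensembl probe held in 13 of 19 alternatives, with adjusted p up to 0.0995. In -LH cells 0 of 8 genes were called by limma (0.018% of all probes) and 1 passed at an unadjusted p under 0.05 (14.2%). By the methods' t-test 0 passed, adjusted or at the study's threshold (0.669% of all probes at that threshold). Only 2 of the 8 were measured there.

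The effect of siPINC1.0/1.6 was compared between +LH and -LH cells as an interaction. For Csn2 the term was -1.18 ± 0.23 (SE) on the log2 scale (adjusted p = 0.0193). Csn2 was at the floor on all -LH arrays, so its -LH effect was not measured and the term restates the +LH difference of -1.20. For the Csn3 Ensembl probe, measured in both, the term was 1.65 ± 0.23 (adjusted p = 0.00317), since its -LH level was lower with siPINC1.0/1.6 and its +LH level differed by -0.18 (95% interval -0.41 to 0.06). Of the 8 genes Csn2 was the only one called, where 3.19% of all probes were called and 1.11% as lower. The call of Csn2 was lost with the 75th percentile (adjusted p = 0.0627), the series matrix (-0.69, adjusted p = 0.251), a slide term (adjusted p = 0.0834) and without any 1 of the 4 -LH arrays of siNEG and siPINC1.0/1.6, with adjusted p up to 0.0617. The term for the Csn3 Ensembl probe lost its call with the slide term (adjusted p = 0.0601) and was 0.69 with normexp. For siPINC, 0 of 8 genes were called (0.503% of all probes), with 1 at an unadjusted p under 0.05 (7.24% of all probes), and the methods hold no t-test of an interaction.

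In the same +LH comparison, siPINC1.0/1.6 against siNEG, 8 of the 32 signalling and transcription factor genes were lower and 1 was higher, with a median log2 difference of -0.19 against -0.01 over all probes. Of all probes 3.84% were called and 1.75% as lower. The log2 difference was -0.91 ± 0.15 (SE) for the NFI gene Nfia, -0.56 ± 0.07 for Ehf, -0.49 ± 0.05 for the insulin receptor substrate Irs1 and -0.40 ± 0.06 for Stat5a. Socs3, a cytokine signalling inhibitor, was the gene that was higher (0.55 ± 0.09). Of 23 other milk and secretory genes 3 were higher, Ltf (lactoferrin, an iron-binding milk protein) by 1.10 ± 0.09, Pthlh by 0.86 ± 0.14 and Cp, the copper carrier ceruloplasmin, by 0.56 ± 0.10, and 1 was lower, Mfge8 of the milk fat globule (log2 difference -0.44 ± 0.07), so that Csn2 and Ltf moved in opposite directions. With siPINC 1 of the 32 was called, the ETS factor Elf5, higher by 0.43 ± 0.07, where 0.681% of all probes were called. Of the 23, 2 were higher with siPINC, Ltf by 1.27 ± 0.09 and Pip by 0.36 ± 0.05.

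Overexpression of mPINC1.0 and mPINC1.6 in +LH cells was tested against LeGO-GFP. Of the 8 genes 4 were lower and 0 higher in LeGO-1.0/1.6, Csn2, Csn1s1, Wap and Lalba, where 30.3% of all probes were called and 15.8% as lower. The same 4 genes were lower against LeGO-DCR (29.7% of all probes, 15.1% as lower). The Csn3 Ensembl probe was lower in both comparisons.

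Csn2 was 6.00, 6.21 and 6.24 in LeGO-GFP cells and 1.90, 1.89 and 1.92 in LeGO-1.0/1.6 cells, where no array was above background. It was at least 6.75-fold lower (adjusted p = 9.76e-06), with a fitted log2 difference of -4.25 ± 0.24 (SE). This log2 difference was -1.08 with normexp and -2.29 with the authors' series matrix, both smaller changes than the bound. In LeGO-DCR Csn2 was 6.10, 6.25 and 7.09, so LeGO-1.0/1.6 was at least 8.48-fold lower than LeGO-DCR (adjusted p = 6.77e-06). The LeGO-1.0/1.6 level was at the floor, as in -LH siRNA cells.

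Csn1s1 was 4.40, 2.91 and 3.87 in LeGO-GFP, above background only on the first of these arrays, and 1.88, 1.90 and 1.87 in LeGO-1.0/1.6. The log2 difference was -1.84 ± 0.34 (adjusted p = 0.00437), and as a bound the fold was at least 1.26. This bound rests on LeGO-1.0/1.6 replicate 1, the array that stood apart. Its lowest signal well above background was 2.47, against 3.77 and 3.95 on replicates 2 and 3, both above the LeGO-GFP mean of 3.73. Replicate 1 also raises the other bounds given for LeGO-1.0/1.6, which were not computed without it. Against LeGO-DCR, at 4.33, 4.63 and 4.55 and above background on all 3 arrays, it was at least 2.15-fold lower (adjusted p = 7.05e-04). The call against LeGO-GFP was absent with the methods' t-test, which called Csn2, Wap and Lalba in that comparison after adjustment, and the same 3 at the study's threshold for overexpression, an unadjusted p under 0.01 with a fold over 1.4. At that threshold 18.6% of all probes passed.

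Wap was above background in no siRNA group but on all LeGO-GFP arrays (4.25, 5.15 and 5.04) and all LeGO-DCR arrays (4.61, 4.82 and 5.30). In LeGO-1.0/1.6 it was 1.91, 2.58 and 2.34, at background and below every control array. It was at least 2.67-fold lower than LeGO-GFP (adjusted p = 4.75e-04) and at least 2.85-fold lower than LeGO-DCR (adjusted p = 3.88e-04). The log2 difference from LeGO-GFP was -0.40 with normexp and -0.93 with the authors' series matrix, both smaller changes than the bound. The dimmer Wap probe was above background on 0 of 24 arrays and showed no such difference (log2 -0.02 against LeGO-GFP, adjusted p = 0.947).

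Lalba, measured on every array, was 6.80, 6.81 and 6.98 in LeGO-GFP and 6.01, 6.35 and 6.07 in LeGO-1.0/1.6. It fell 1.65-fold (log2 -0.72 ± 0.11, adjusted p = 0.00144) without overlap, and was 1.77-fold lower than in LeGO-DCR (6.88, 7.07 and 6.95). The Csn3 Ensembl probe was 5.73, 5.43 and 5.89 in LeGO-GFP and 2.96, 4.26 and 4.08 in LeGO-1.0/1.6, a 3.78-fold fall (log2 -1.92 ± 0.34, adjusted p = 0.00361, log2 -0.49 with normexp), and 6.09, 5.90 and 6.34 in LeGO-DCR. Its lowest value is that of LeGO-1.0/1.6 replicate 1, the array that stood apart. Without this array the same 4 genes were called against LeGO-GFP. Csn1s2b was 3.76, 4.47 and 4.70 in LeGO-GFP against 3.30, 4.75 and 4.70, overlapping and not called (log2 -0.06, 95% interval -1.13 to 1.01), in contrast to the calls for Csn2 and Csn1s1, a difference between genes that was not tested.

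Other genes that moved with LeGO-1.0/1.6 include markers of epithelial subtypes. Of all probes 30.3% were called in this comparison with LeGO-GFP. Against LeGO-GFP, 5 of 6 basal markers fell and 1 rose, and their mean log2 signal per array was 9.19 to 9.53 against 11.86 to 11.99. Of 6 luminal markers 3 were lower and 1 higher (10.62 to 10.99 against 10.75 to 11.17), and of 5 fibroblast markers 3 were lower and 1 higher (6.14 to 6.26 against 8.44 to 8.47). In LeGO-GFP 6 of 6 basal, 5 of 6 luminal and 4 of 5 fibroblast markers were above background on every array. Their part in the fall of the milk protein genes was not tested.

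By limma LeGO-DCR against LeGO-GFP gave 0 calls among the 8 genes, 4 of them measured, where 0.0736% of all probes were called. There were also 0 at an unadjusted p under 0.05 (4.52% of all probes) and 0 by the methods' t-test, adjusted or at the study's threshold (0.715% of all probes at that threshold). The log2 difference was 0.33 for Csn2 (95% interval -0.23 to 0.89), 0.78 for Csn1s1 (-0.02 to 1.57), 0.10 for Wap (-0.62 to 0.81) and 0.10 for Lalba (-0.15 to 0.35). LeGO-GFP replicate 1 was the only overexpression array not on the third slide. Within the third slide the LeGO-1.0/1.6 differences were -4.33 for Csn2, -1.51 for Csn1s1, -2.82 for Wap and -0.76 for Lalba.

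**Figure D4:**
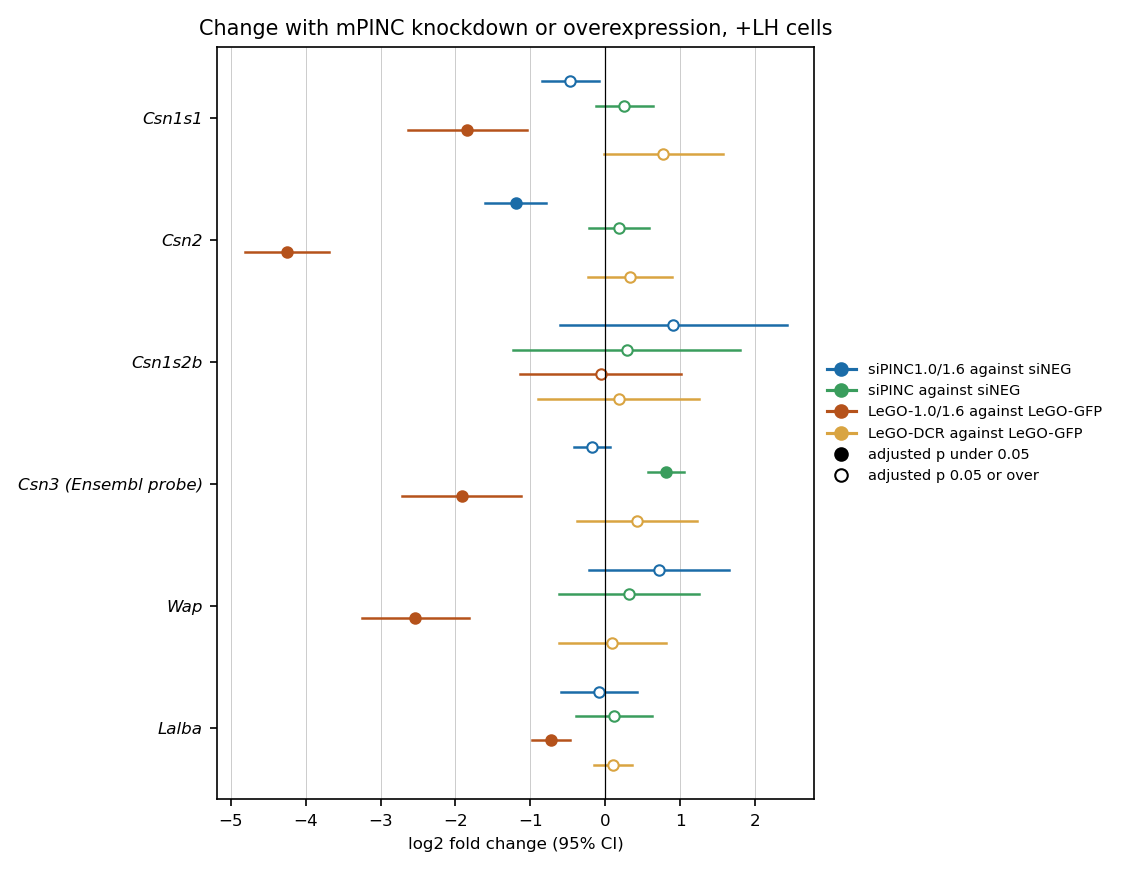
Change of 5 milk protein genes and the Csn3 Ensembl probe with mPINC knockdown or overexpression in +LH cells (x axis, log2 fold change with its 95% interval; colours, comparisons; filled, adjusted p under 0.05 by limma). LeGO-1.0/1.6 is called and below 0 for every probe shown but Csn1s2b, at -4.25 for Csn2, and every LeGO-DCR interval includes 0. Csn2 is the only call for siPINC1.0/1.6 and the Csn3 Ensembl probe the only call for siPINC.

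The transcription factors moved as well. In LeGO-1.0/1.6, 17 of the 32 signalling and transcription factor genes were lower than in LeGO-GFP and 7 higher, where 30.3% of all probes were called and 15.8% as lower. The log2 difference was -5.47 ± 0.14 (SE) for Elf5, an alveolar ETS factor, and -2.58 ± 0.06 for Id2, a regulator of alveolar development. It was -1.99 ± 0.56 for Nfia, -1.86 ± 0.07 for Ehf and -1.47 ± 0.09 for Fkbp5. Of the 23 other milk and secretory genes 12 were lower and 5 higher. The log2 difference was -7.92 ± 0.25 for Pip, -4.31 ± 0.06 for Ltf and -3.72 ± 0.05 for Wfdc18, whereas it was 4.89 ± 0.11 for Saa3, an acute phase protein, and 2.27 ± 0.10 for Pthlh, parathyroid hormone-like hormone. Of the casein cluster neighbours 0 of 13 were called. For LeGO-DCR 0 of the 32 and 0 of the 23 were called.

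**Figure D5:**
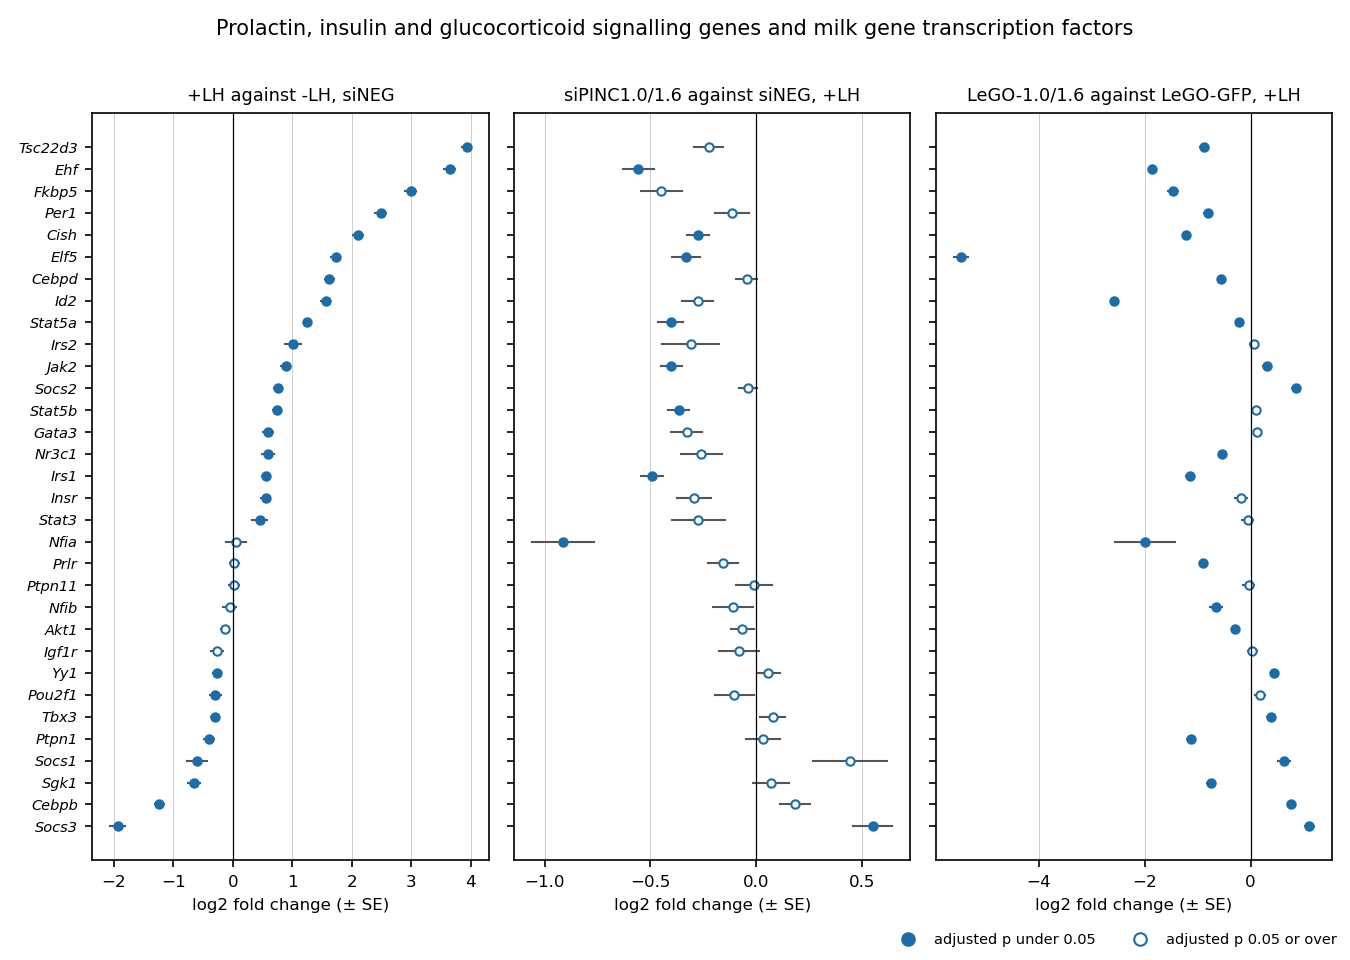
Change of 32 signalling and transcription factor genes in 3 comparisons (x axes, log2 fold change ± SE, each panel with its own scale; y axis, genes ordered by the hormone change in siNEG; filled, adjusted p under 0.05 by limma). Tsc22d3, Ehf and Fkbp5 have the largest rise with hormones, and Elf5 has the largest fall with LeGO-1.0/1.6, at -5.47.

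The hormone-treated controls of the experiments differed in their milk genes. Csn2 was between 10.76 and 11.08 in siNEG and between 6.00 and 6.24 in LeGO-GFP, and Csn1s1 between 6.53 and 6.68 against 2.91 to 4.40, whereas Wap was between 2.01 and 2.71 in siNEG and between 4.25 and 5.15 in LeGO-GFP and Lalba between 5.60 and 6.44 against 6.80 to 6.98. On the first slide, which holds 1 array of each, the log2 difference of LeGO-GFP from siNEG was -4.98 for Csn2, -2.15 for Csn1s1, 1.91 for Wap and 0.36 for Lalba. These cells differed in transfection, transduction and freezing, no test was made between them, and with 1 array of each per slide there is no replicate check.

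The genes whose signal followed each milk gene most closely over the 24 arrays were taken from 17982 probes above background on every array of some group. For Csn2 these were Mgll (Pearson r = 0.993), Edem3 (r = 0.992) and Trim13 (r = 0.991), and for Csn1s1 Hgs (r = 0.976), Mgll (r = 0.973) and Ppm1h (r = 0.972). For the Csn3 Ensembl probe they were Tcf7l2 (r = 0.975), Igsf3 (r = 0.974) and Plxdc2 (r = 0.973). Wap followed another set, Krtap1-5 (r = 0.947), Klhdc7a (r = 0.946) and Synpo (r = 0.935), and Lalba and Csn1s2b had lower best values, 0.884 with Cyp2d11 and 0.85 with Tom1l2. The arrays share groups and slides, so these values describe the order of the groups.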

How the data were processed

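Gene expression was measured on 24 Agilent 1-colour arrays of HC11 cells in 9 groups. The authors deposited, per array, Agilent Feature Extraction 11.0.1.1 intensity values, background-corrected within the array but not normalized between arrays, and a series matrix of log2 values that the authors had quantile normalized, used here only as an alternative. No spot was saturated, and values near background give only a bound.

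Control spots were dropped, and log2 processed signals of the remaining 59305 spots were quantile normalized across all 24 arrays, outlier spots were left out, and spots were averaged to 55681 probes. Dim probes were kept. Probes were named through their RefSeq accession (26582 probes, 20145 symbols). For a gene with several probes the brightest stands. Tests used limma 3.58.1 (R 4.3.3), with separate fits of the 15 knockdown arrays (hormone changes and interactions), the 6 -LH, the 9 +LH knockdown and the 9 overexpression arrays. P-values were adjusted by Benjamini-Hochberg over all probes, and an adjusted p under 0.05 was called. Intervals are 95% intervals. Figures used Python 3.11.15 with pandas 2.3.3 and matplotlib 3.10.9.

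The genes followed, the gene lists and the tests were chosen with earlier results of these data known. All probes of the 8 genes are accounted for, and of each list at most 5 called genes were named per comparison, the largest changes first. Alternatives were scaling to the 75th percentile, quantile normalization of each experiment alone, normexp, the series matrix, bright probes only, a trended and robust prior, the methods' t-test with Benjamini-Hochberg adjustment, a single fit to every array (with and without the slide), a replicate block, other probes of a gene and leaving out each array. The restriction of the siNEG hormone change to the first slide was added after the data were seen, as were the counts of the t-test at the study's thresholds (unadjusted p under 0.01 and a fold over 1.8 or 1.4, here of mean log2 values). Replicates of a group correlated between 0.992 and 0.998 over probes.

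Precision is limited by how many arrays there are, and 24012 to 35763 probes per array were well above background. On simulated data with 200 of 55072 probes changed, 37% of log2 changes of 1 and 64% of log2 changes of 2 were called for the hormone change in siNEG, 1% and 20% for siPINC1.0/1.6 in -LH cells, and 33% and 62% for LeGO-1.0/1.6. In the data far more probes were called in these comparisons, 27.1%, 2.96% and 30.3%. The Benjamini-Hochberg cutoff depends on that share, so the simulated rates are not those of the data.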

Additional observations from a re-analysis of the deposited data

Results flagged for a closer look

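By limma's interaction term, the difference between siPINC1.0/1.6 and siNEG was not the same with and without hormones at 2 probes. For Csn2 the difference was -1.18 on the log2 scale (adjusted p = 0.0193), with siPINC1.0/1.6 below siNEG in 3 of 3 +LH arrays and both groups at the floor in -LH cells, so that no -LH effect was measured for it, and the call was lost in 7 of 24 alternatives. For the Csn3 Ensembl probe it was 1.65 (adjusted p = 0.00317), with siPINC1.0/1.6 below siNEG in 2 of 2 -LH arrays and overlapping siNEG in +LH cells, and the call was lost in 1 of 24 alternatives.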

How the results depend on the processing

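The rise of Csn2 and Csn1s1 with hormones in all 3 siRNA groups, the rise of the Csn3 Ensembl probe, and the falls of Csn2, Wap, Lalba and the Csn3 Ensembl probe with LeGO-1.0/1.6 passed the threshold under every alternative run on these probes, except that the Csn3 Ensembl probe with LeGO-1.0/1.6 did not pass the t-test at the study's threshold. The other Wap probe and the Csn3 RefSeq probe, neither above background, gave no call. Over all values of single genes 1232 kept their direction and side of the threshold, 50 lost and 16 gained a call, and 39 changed sign, all of them for Lalba, Csn1s2b, Wap or Csn1s1 values that were not called. Of the counts of called genes 301 stayed within 1.5 times and 27 moved. The causes were not tested, except that fewer arrays or probes are tested by construction in some. Signals near background limit the fold changes of Csn2, Csn1s1, Wap, Csn1s2b and the Csn3 Ensembl probe, which are smaller with normexp.

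Under the 75th percentile the median of all probes moved by 0.17 for the hormone change in siNEG and by 0.22 in siPINC. The count of genes whose siPINC1.0/1.6 effect differed between +LH and -LH cells was 0 (from 1) under the 75th percentile and with the slide term, and between 0 and 2 without single arrays. Where it stayed at 1 the gene was Glycam1 in place of Csn2 with the series matrix and Csn1s1 without siPINC1.0/1.6 -LH replicate 2. With bright probes only the count became 1 for siPINC1.0/1.6 in -LH cells and for siPINC1.0/1.6 against siPINC in -LH cells (Csn1s2b in each), and 2 for the same pair in +LH cells (Csn1s1 and Csn2). This last count was 0 with the methods' t-test after adjustment (Csn2 passed at the study's threshold), 0 with the replicate block, where 0 of all probes were called, and between 0 and 1 without single arrays. Without single arrays the count ranged between 0 and 2 for siPINC1.0/1.6 in +LH cells, and between 0 and 1 for siPINC in -LH cells, for siPINC1.0/1.6 against siPINC in -LH cells and for the difference of siPINC effects, where the gene gained was Csn1s2a without siPINC -LH replicate 1. With the Ensembl probe for Csn3 the count was 1 for siPINC1.0/1.6 in -LH cells, 1 for siPINC in +LH cells, 2 for the pair in +LH cells and 2 for the difference of siPINC1.0/1.6 effects.

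Whether the replicate number pairs the cultures is not stated. Over 21096 probes, deviations of same-numbered arrays correlated between 0.055 and 0.141 in -LH, -0.46 and 0.15 in +LH knockdown and -0.03 and 0.25 in overexpression arrays. These weak values do not settle the question for single genes. With the block the SE of the Csn2 difference for siPINC1.0/1.6 in +LH cells was 0.081 in place of 0.17. With the replicate block Csn2 in siPINC1.0/1.6 against siPINC had an adjusted p of 0.0511 in +LH cells, and so had the Csn3 Ensembl probe. The block also ended the calls of the Csn3 Ensembl probe for siPINC1.0/1.6 in -LH cells (adjusted p = 0.129) and for siPINC in +LH cells (adjusted p = 0.0909).

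For Lalba the hormone change in siPINC1.0/1.6 was 0.0904 under the 75th percentile, 0.0381 with normexp, 0.0598 with the series matrix, 0.53 with the slide term and 0.0859 with the replicate block. With the slide term it was 0.22 in siNEG, 0.44 in siPINC and 0.0944 for siPINC1.0/1.6 in +LH cells, and on the first slide alone 0.22 in siNEG. Its difference of siPINC effects was -0.0282 with normexp and -0.031 with the series matrix. For Csn1s2b the LeGO-1.0/1.6 effect was 0.14 under the 75th percentile and 0.0021 with normexp, the difference from LeGO-DCR 0.0059 with normexp, and the siPINC effect in -LH cells -0.0229 with normexp and -0.0447 with the series matrix. The difference of siPINC effects on Csn1s1 was -0.11 with the series matrix, and the LeGO-DCR effect on Wap -0.19 with the slide term. Without single arrays, Lalba ranged from -0.31 to 0.10 for hormones in siNEG, -0.0754 to 0.0742 in siPINC1.0/1.6 and -0.22 to 0.0264 in siPINC, from -0.0444 to 0.20 for siPINC in -LH cells, -0.32 to 0.0944 for siPINC1.0/1.6 and -0.12 to 0.30 for siPINC in +LH cells, and from -0.11 to 0.31 and -0.20 to 0.22 for the differences of siPINC1.0/1.6 and siPINC effects. Csn1s2b ranged from -0.33 to 0.42 for LeGO-1.0/1.6, -0.48 to 0.24 against LeGO-DCR and -0.22 to 1.12 for siPINC1.0/1.6 against siPINC in +LH cells, and Wap from -0.19 to 0.26 for LeGO-DCR.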
